A study of Mus musculus with 12 samples.

Results

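The response of intact glomeruli to tamoxifen was set against the response of primary podocyte cultures, gene by gene. The glomerular response is the mean log2 signal of tamoxifen-treated minus control glomeruli, the culture response is the mean of tamoxifen minus mock at day 4 and at day 7, and the difference of responses is the first minus the second. A gene was included where its probe was well above background, by the scanner software's flag, on both arrays of control glomeruli, mock day 4 cultures and mock day 7 cultures. This held for 12412 of 15226 named genes tested, of which 12052 were well above background on all 12 arrays. The choice of genes used the background flags of untreated and mock samples only, so both sides of the comparison started from a readable level. The probe that stands for a gene was chosen by its signal over all arrays, treated ones included.

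Gene expression was measured on 12 one-colour arrays, 1 per sample, in 6 groups of 2. All samples, controls and mock cultures included, had the genotype Inducible-Cre; Foxc1 flox/flox; Foxc2 flox/flox, with the second gene read from the series title because its number changes among the genotype labels. Control glomeruli came from mice given no agent, whose age the labels do not give, and treated glomeruli from mice given intraperitoneal tamoxifen for 3 days in a row when 8 weeks old, with glomeruli isolated on day 7. Podocytes expanded from glomeruli of adult mice received active tamoxifen or a mock treatment for 4 or 7 days. The series describes the recombinase as CreERT2, and the promoter that drives it is not given in the sources used here. Since every treated sample had the drug as well as any recombination it caused, the effects of the drug and of losing the genes cannot be told apart. Glomerular labels name separate mice, but nothing says whether culture samples 1 and 2 were separate cultures. The p-values then measure only the spread between these samples, which may be technical.

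Foxc1 and Foxc2 are closely related forkhead transcription factors that podocytes express from kidney development onwards. Podocytes are the epithelial cells whose foot processes and slit diaphragms cover the glomerular capillaries, beside endothelial and mesangial cells. In primary culture they leave that setting and lose part of their specialised programme.

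Each array had 57.9% to 63.4% of spots well above background with 0 saturated, and over genes the correlation of replicates was 0.983 to 0.990. The arrays lay on 3 slides, 1 for all glomeruli, 1 for day 4 and 1 for day 7, so each response was measured within a slide, while tissue and slide cannot be told apart. Podocyte markers were read in both settings at unlike levels. Wt1, a transcription factor of podocytes, was at 5.40 and 6.02 in control glomeruli and at 4.93 to 5.17 in mock cultures, on the log2 scale relative to each array's 75th percentile that is used throughout. Podxl, which encodes the podocyte surface protein podocalyxin, was at 4.58 and 4.95 in control glomeruli and at 0.41 to 0.66 in mock cultures. Pecam1, an endothelial surface protein, was at 1.46 and 1.21 in control glomeruli and at -4.02 to -3.75 in mock cultures. In whole glomeruli fewer cells of a type and less RNA per cell cannot be told apart. Precision is limited by how few arrays there are. For 1 response, with 2 samples against 2, the smallest two-sided exact permutation p is 0.333. Every adjusted p below is limma's, from 1 fit of all genes over all 12 arrays.

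The responses of glomeruli and cultures parted at a small share of genes, among them Foxc2, the sodium pump subunit Atp1b1 and the phosphodiesterase Pde2a. The difference of responses was called (adjusted p under 0.05 by limma) for 108 of the 12412 genes, against a background of 1.09% of all genes tested. It was higher in glomeruli for 61 (background 0.617%) and lower for 47 (background 0.473%), and for 83 it was at least 2-fold, a step of 1 on the log2 scale. Of the 108, 94 were well above background on all 12 arrays, and the others rest in part on dim values. Where a treated group was wholly dim, the bound explained below for Foxc2 ran from 1.43-fold for Onecut2 to 43.54-fold for Angptl7, Fut7 left out. The Angptl7 bound of 5.44 is the same as its measured difference. Fut7 was dim in treated glomeruli, and its bound of 0.27 is an upper limit above 0, which leaves its direction unsettled. In 92 of the 108 the responses had opposite signs, 50 with a positive glomerular and a negative culture response and 42 the other way round. Choosing genes by the difference favours opposite signs, and over all 12412 genes 58.2% had the same sign in both settings. All 108 kept their 4 treated minus control differences in glomeruli apart from their 8 in cultures, as did 18.3% of the genes called or not. The count moved with the background model and with single arrays. With normexp background correction, which adds an offset to every signal, 3 genes were called, all 3 higher in glomeruli. Without glomerular control 1 the count was 6, and without treated glomeruli 1 or 2 it was 16 or 216. Without a mock array it was 11 or 3 at day 4 and 106 or 23 at day 7, and without a treated culture it was 1 with either day 4 array and 8 or 10 with those of day 7. With normexp 1 of the 43 called genes that the naming rule chose, Atp1b1, was still called. All 43 kept their sign in every setting tried and 0 stayed called in all 12 fits that left out 1 array. Since the differences of these genes did not overlap, their sign could not change on leaving out 1 array or using 1 culture day. For those fits the kept sign is therefore no test.

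Each response was also tested by itself. The glomerular response was called for 259 of these genes, 155 rising and 104 falling, against 2.6% of all genes tested (1.75% and 0.854%). It was 3 with normexp, 60 without control glomeruli 1, 35 without treated glomeruli 1 and 50 to 116 without any 1 culture array. The mean culture response was called for 629, with 322 rising and 307 falling, against 5.1% of all genes tested (2.84% and 2.27%), and it was 162 to 408 without any 1 culture array other than day 7 mock 1. Both were called for 40 genes, which were 15.4% of the glomerular and 6.36% of the culture calls, and 34 of them had the same sign. Genes that rose in cultures had a median culture response of 0.84 and a median glomerular response of 0.08, with 193 of 322 above 0. Genes that fell in cultures had medians of -0.90 and -0.18, with 208 of 307 below 0 in glomeruli. Beside these counts, 58.2% of all 12412 genes had the same sign in both settings, and their median glomerular response was -0.06. In the other direction, the 155 genes that rose in glomeruli had a median glomerular response of 1.20 and a median culture response of 0.18. The 104 that fell had medians of -0.81 and -0.11. Over the 12412 genes the 2 responses correlated at Pearson's r = 0.21 (Spearman's rho 0.24), and the day 4 and day 7 responses at r = 0.92 (rho 0.85). These correlations are across genes, which are not independent replicates, and the culture responses share a slide within a day and the same kind of cells.

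**Figure D1:**
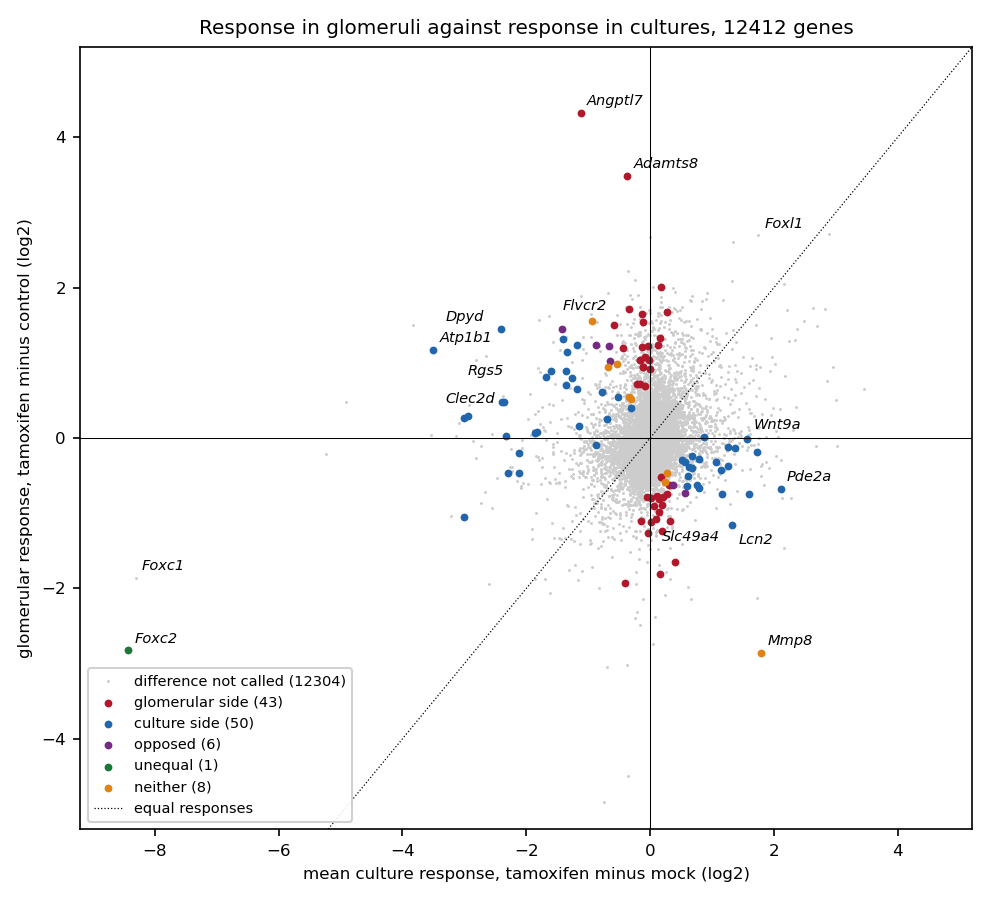
Glomerular response (vertical) against mean culture response (horizontal), both in log2 units, for the 12412 genes. Grey points are genes whose difference of responses was not called, and coloured points are the 108 called genes by which side was itself called: 43 by the glomerular response alone, 50 by the culture response alone, 6 by both with opposite signs, 1 by both with the same sign and 8 by neither. Called genes lie mainly in the upper left and lower right, off the dotted line of equal responses, places that choosing genes by the difference favours.

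Of the floxed genes, Foxc2 had a called difference of responses and Foxc1 did not. Foxc2 read 2.10 and 2.24 in control glomeruli against -1.12 and -0.19 after tamoxifen. It read 1.76 and 1.45 in day 4 mock cultures against -7.11 and -5.42 with tamoxifen, and 1.38 and 1.42 against -7.80 and -7.37 at day 7. Every treated sample was below every control of its setting, and no treated culture was well above background. Foxc2 thus fell by 2.82 in glomeruli (SE 0.51, adjusted p = 0.037 by limma) with a response of -8.43 in cultures (SE 0.36, adjusted p = 7.94e-05), a difference of 5.61 (SE 0.63, adjusted p = 0.022). Because the treated cultures were not well above background, the difference is bounded at 4.36, or at least 20.55-fold. For a bound, each dim array's value is replaced by the weakest signal that the software still set well above background there, where the probe's own is lower. With normexp the difference was 1.35 (adjusted p = 0.33). The Foxc1 values were 2.92 and 2.80 in control glomeruli against 0.92 and 1.09 after tamoxifen. In cultures they were 3.09 and 4.21 with mock and -5.78 and -1.74 with tamoxifen at day 4, and 2.62 and 4.33 against -8.20 and -3.26 at day 7. Treated samples were lower throughout, but the treated cultures differed widely from each other, and Foxc1 was well above background on 1 of the 2 treated arrays at day 4 and 1 of the 2 at day 7. The measured difference of 6.45 (SE 2.07, adjusted p = 0.17), which rests in part on these dim values, was not called.

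Among the 61 genes higher in glomeruli, 28 were called on the culture side alone: they fell in cultures, and their glomerular response was not called. Among these the largest difference was that of Atp1b1, the beta 1 subunit of the sodium pump. It read 3.74 and 3.83 in control glomeruli against 5.14 and 4.78 after tamoxifen. Mock cultures read 3.53 and 4.62 at day 4 and 3.25 and 4.23 at day 7, and treated cultures 0.31 and 1.31 at day 4 and -0.14 and 0.14 at day 7. The 4 treated cultures were far below the 4 mock cultures, while both treated glomeruli were above both controls. Its culture response was -3.50 (SE 0.33, adjusted p = 0.0029 by limma), its glomerular response 1.17 (SE 0.47, adjusted p = 0.24), and the difference 4.67 (SE 0.58, adjusted p = 0.028). With normexp Atp1b1 remained called at 4.56 (adjusted p = 0.049).

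Dpyd, which encodes the enzyme that starts pyrimidine breakdown, followed the same course at a lower signal. It read -3.00 and -2.62 in control glomeruli against -0.85 and -1.86 after tamoxifen, -2.71 and -2.99 in day 4 mock cultures against -4.84 and -5.30 with tamoxifen, and -2.85 and -3.33 against -5.21 and -6.16 at day 7. Glomeruli and cultures moved apart by 3.86 (SE 0.51, adjusted p = 0.028 by limma), and with normexp by 1.41 (adjusted p = 0.31). Clec2d, a C-type lectin that is a ligand of natural killer cell receptors, was at 1.17 and 1.21 in control glomeruli against 1.68 and 1.23 after tamoxifen. In cultures it was at -0.74 and 0.09 with mock and -3.03 and -3.51 with tamoxifen at day 4, and at -0.59 and -0.21 against -3.46 and -3.47 at day 7. The glomerular samples lay close together while Clec2d fell in cultures by 3.01 (SE 0.21, adjusted p = 0.00076), and the difference was 3.27 (SE 0.36, adjusted p = 0.022). With normexp that difference was 2.05 (adjusted p = 0.14).

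Other genes called on the culture side alone were markers on the mesangial and podocyte lists. Rgs5, a regulator of G protein signalling typical of pericytes, read 0.93 and 0.72 in control glomeruli against 1.28 and 1.34 after tamoxifen. It read -0.66 and -0.83 in day 4 mock cultures against -2.26 and -2.99 with tamoxifen, and -0.66 and -1.49 against -3.79 and -4.00 at day 7. The fall in cultures was 2.35 (SE 0.21, adjusted p = 0.0026), against a glomerular response of 0.48 (SE 0.30, adjusted p = 0.45), and the difference was 2.83 (SE 0.37, adjusted p = 0.028). Beside it the summed linear level of 14 mesangial and mural markers, Rgs5 included, was 59.6 to 75.9 in mock and 27.3 to 33.0 in treated cultures, and 77.1 to 169.5 in control and 121.4 to 131.0 in treated glomeruli. In each culture group 12 or 13 of the 14 were well above background on both arrays. The part of these markers in the result was not tested, and with normexp the difference of Rgs5 was 1.47 (adjusted p = 0.19). Ptgis, prostacyclin synthase, read 0.03 and -0.06 in control glomeruli against -0.16 and -0.28 after tamoxifen. In cultures it read -0.04 and 0.65 against -1.78 and -1.50 at day 4, and -0.17 and 0.31 against -2.28 and -2.15 at day 7. It fell by 2.12 in cultures (SE 0.17, adjusted p = 0.0018), and the difference of 1.91 (SE 0.30, adjusted p = 0.037) came with a glomerular response of -0.20. Inf2, a formin that remodels podocyte actin and is mutated in inherited glomerulosclerosis, showed a smaller difference of 0.79 (SE 0.13, adjusted p = 0.044). It read 3.95 and 3.91 in control glomeruli against 3.79 and 3.88 after tamoxifen, and 4.84 to 5.16 in the 4 mock against 4.07 to 4.20 in the 4 treated cultures.

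The other named genes of this group were Lancl3 (difference 3.24), Aldh1a7 (2.87), an aldehyde dehydrogenase, and Cdkl1 (2.73), a kinase related to the cyclin-dependent kinases. Aldh1a7 was at 0.10 to 0.86 in mock and -2.61 to -1.06 in treated cultures, and at -3.23 to -2.04 over all 4 glomerular samples. Cdkl1 was at -1.61 and -0.82 in control glomeruli against -0.06 and 0.27 after tamoxifen, and both treated samples exceeded both controls, yet its glomerular response of 1.32 was not called (adjusted p = 0.089 by limma). With normexp the difference of Cdkl1 was 0.92 (adjusted p = 0.53) and that of Lancl3 1.58 (adjusted p = 0.22).

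**Figure D2:**
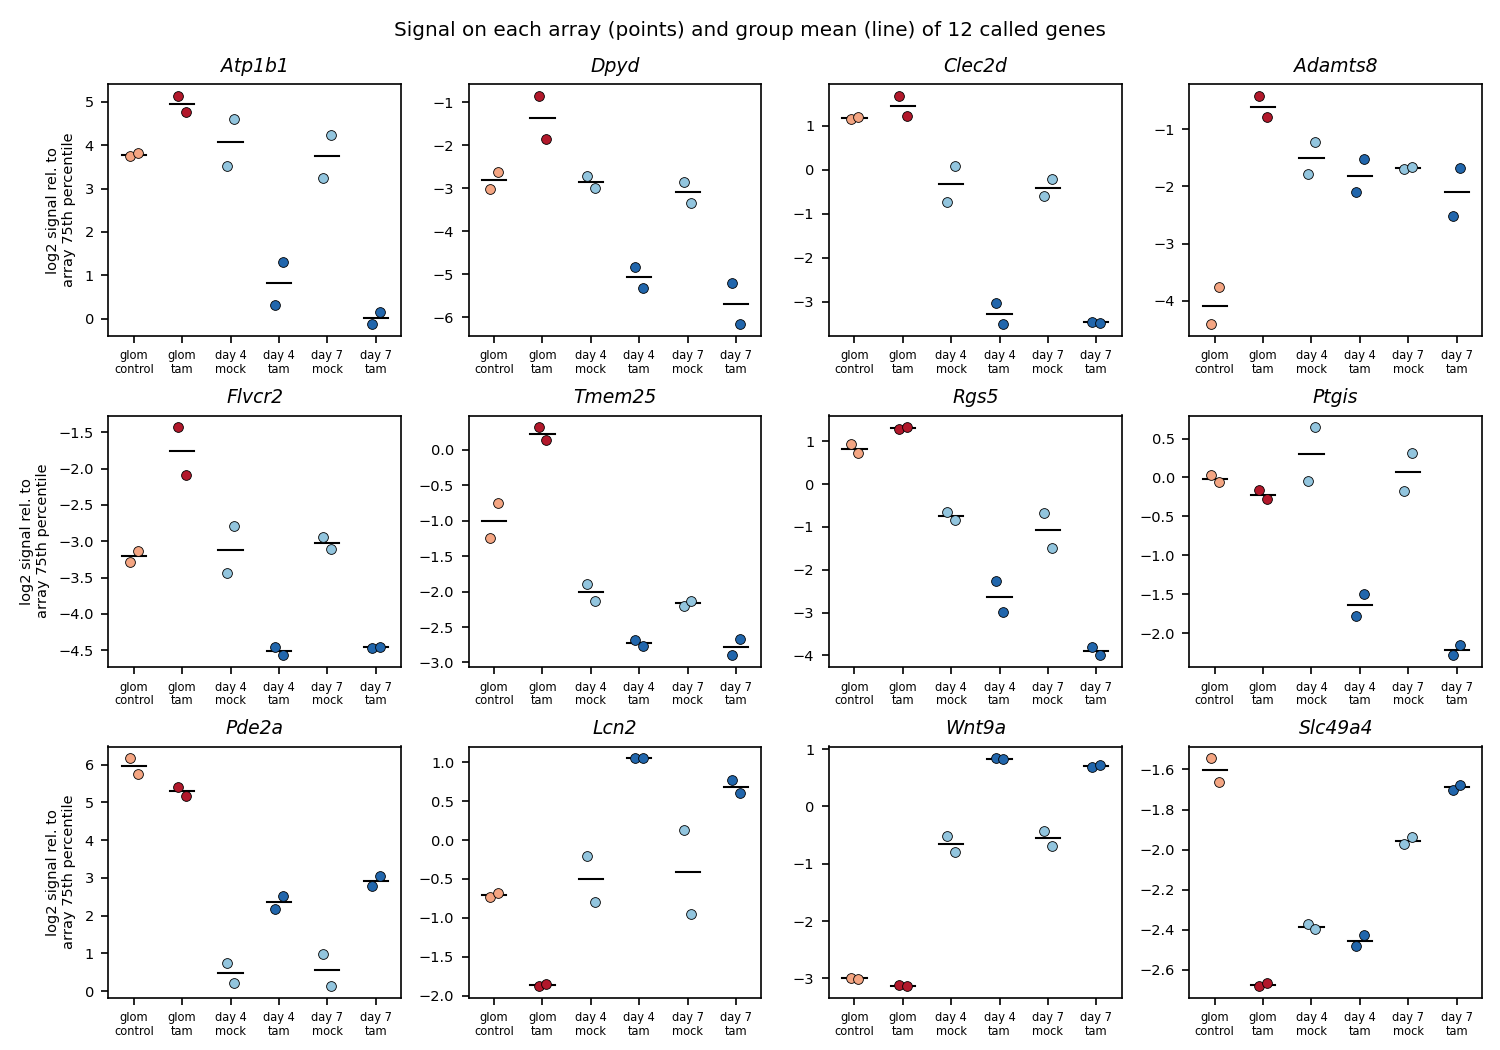
Log2 signal relative to the array's 75th percentile on each of the 12 arrays for 12 called genes, with points for arrays and a line for the mean of each group of 2. Atp1b1, Dpyd, Clec2d, Rgs5 and Ptgis are low in the 4 treated cultures, Pde2a, Lcn2 and Wnt9a are high there, and Adamts8 and Slc49a4 move in glomeruli.

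Another 22 genes, lower in glomeruli, rose in cultures without a glomerular call. Pde2a, a phosphodiesterase that breaks down cyclic nucleotides, read 6.17 and 5.76 in control glomeruli against 5.41 and 5.17 after tamoxifen. It read 0.74 and 0.22 in day 4 mock cultures against 2.18 and 2.53 with tamoxifen, and 0.99 and 0.12 against 2.78 and 3.04 at day 7. Cultures stayed below glomeruli at every time, and the treated cultures lay above all 4 mock cultures. The rise was 2.11 (SE 0.22, adjusted p = 0.0037), the glomerular response -0.68 (SE 0.31, adjusted p = 0.31) and the difference -2.79 (SE 0.39, adjusted p = 0.029).

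Lcn2, a secreted lipocalin that injured tubule cells release, read -0.73 and -0.68 in control glomeruli against -1.88 and -1.85 after tamoxifen. Cultures read -0.20 and -0.79 against 1.06 and 1.05 at day 4, and 0.13 and -0.95 against 0.77 and 0.60 at day 7. Treated samples were lower than controls in glomeruli and higher in cultures, with a culture response of 1.33 (SE 0.23, adjusted p = 0.020) and a difference of -2.49 (SE 0.40, adjusted p = 0.041). Its glomerular response of -1.16 (SE 0.33, adjusted p = 0.11) was not called. Wnt9a, a secreted Wnt ligand, read -2.99 and -3.01 in control glomeruli against -3.12 and -3.14 after tamoxifen. Mock cultures read -0.52 and -0.79 at day 4 and -0.43 and -0.69 at day 7, and treated cultures 0.84 and 0.82 and then 0.68 and 0.73. Treated and mock cultures did not overlap for Wnt9a, and it rose by 1.38 in cultures (SE 0.09, adjusted p = 0.00063) with a difference of -1.51 (SE 0.15, adjusted p = 0.019).

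Receptors and secreted factors were among the rest. Acvr1, a type I receptor for bone morphogenetic proteins, read 2.35 and 2.11 in control glomeruli against 1.79 and 1.91 after tamoxifen, and 2.98 to 3.05 in mock against 3.56 to 3.72 in treated cultures. It rose by 0.64 in cultures (SE 0.08, adjusted p = 0.0059), and the difference was -1.02 (SE 0.13, adjusted p = 0.028). Ahr, the ligand-activated aryl hydrocarbon receptor, read 1.22 and 1.08 in control glomeruli against 0.36 and 0.63 after tamoxifen. In cultures its range was -1.10 to -0.58 with mock and -0.43 to 0.37 with tamoxifen. The samples did not overlap on either side, and the difference was -1.45 (SE 0.25, adjusted p = 0.045). Angptl2, a secreted angiopoietin-like protein, stayed between 1.78 and 2.10 in all 4 glomerular samples and rose from -2.70 to -2.01 in mock to -1.19 to -0.59 in treated cultures (difference -1.59, SE 0.27, adjusted p = 0.045). Metrnl, a secreted meteorin-like protein, had a difference of -1.90, Nhsl2 of -1.92, Klhl29 of -1.62 and Tmem229b of -1.57. Fhdc1, a formin-like protein, was not well above background in treated glomeruli, so its difference of -2.34 is bounded at -2.001, at least 4.003-fold. With normexp it was -1.11 (adjusted p = 0.23).

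**Figure D3:**
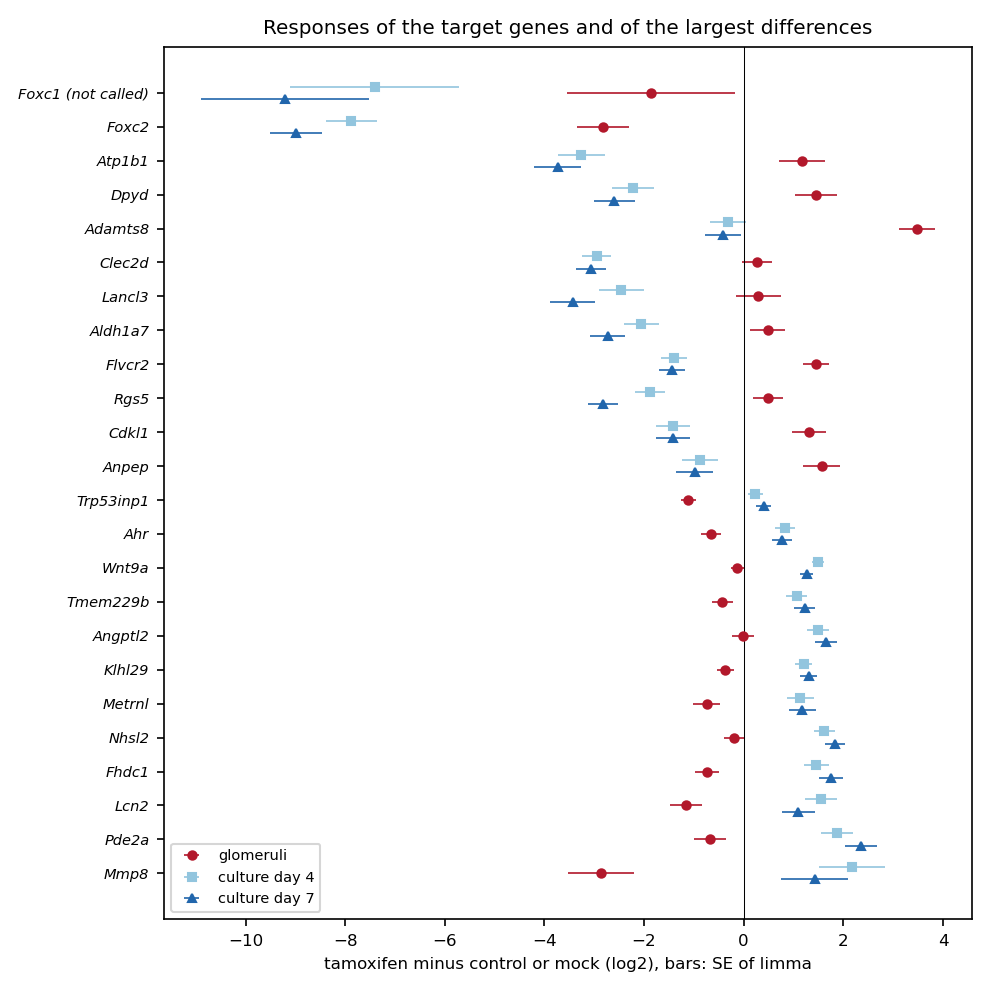
Responses in glomeruli (circles), day 4 cultures (squares) and day 7 cultures (triangles) in log2 units with limma's SE, for Foxc1, Foxc2, the 10 largest called differences in each direction that the naming rule takes, and Mmp8 and Fhdc1, whose treated glomeruli were not well above background. The day 4 and day 7 symbols lie near each other and, apart from Foxc1 and Foxc2, on the other side of 0 from the glomerular symbol.

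The glomerular side alone accounted for 43 called genes, 23 higher and 20 lower, with no call in cultures. Adamts8, a secreted metalloproteinase with thrombospondin repeats, read -4.42 and -3.76 in control glomeruli against -0.41 and -0.79 after tamoxifen. Its culture values were -1.79 and -1.21 against -2.10 and -1.53 at day 4, and -1.70 and -1.66 against -2.51 and -1.68 at day 7. Treated glomeruli were far above controls, while mock and treated cultures overlapped. It rose by 3.49 in glomeruli (SE 0.36, adjusted p = 0.013) with a culture response of -0.36 (SE 0.25, adjusted p = 0.47), a difference of 3.85 (SE 0.44, adjusted p = 0.022). With normexp the difference was 1.97 (adjusted p = 0.085), and the gene's other probe gave 0.39. Angptl7, a secreted angiopoietin-like protein, had a still larger difference of 5.44 (SE 0.85, adjusted p = 0.037). It was chosen after its values were seen, since the naming rule leaves out a gene whose treated cultures were wholly dim at day 4 but not at day 7. Angptl7 read -2.78 and -3.63 in control glomeruli against 2.22 and 0.02 after tamoxifen, -4.88 to -4.08 in mock and -6.26 to -5.23 in treated cultures, where neither day 4 array was well above background. Its treated day 7 cultures were not wholly dim, so their values entered its bound as measured. Treated glomeruli exceeded every other sample, and the glomerular rise was 4.32 (SE 0.69, adjusted p = 0.028).

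Fads2, a desaturase of polyunsaturated fatty acids, read -5.59 and -5.57 in control glomeruli against -3.69 and -4.05 after tamoxifen, and -0.99 to -0.72 in mock against -1.61 to -0.92 in treated cultures. It rose by 1.71 in glomeruli (SE 0.22, adjusted p = 0.018), with a difference of 2.05 (SE 0.27, adjusted p = 0.028) that with normexp was 0.77. Rrm2, the small subunit of ribonucleotide reductase, read -2.41 and -2.52 in control glomeruli against -0.20 and -0.71 after tamoxifen, and 2.18 to 2.98 in mock against 2.37 to 3.14 in treated cultures. Cultures were higher than any glomerular sample and their treated and mock values overlapped. The rise in glomeruli was 2.01 (SE 0.24, adjusted p = 0.015) and the difference 1.83 (SE 0.29, adjusted p = 0.041). Of the 23 cell cycle genes included, Rrm2 alone was called, and 11 had a difference above 0 and 12 below, with a median of -0.01. Mki67, a proliferation marker named after its values were seen, had responses of 1.24 in glomeruli and -0.01 in cultures, and its difference of 1.25 was not called (adjusted p = 0.32). Echdc3, a mitochondrial protein related to enoyl-CoA hydratases, had a difference of 2.10 (SE 0.29, adjusted p = 0.029), with a rise of 1.51 in glomeruli.

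A pair of the higher genes on the glomerular side were tubule markers. Slc22a6, which carries organic anions into proximal tubule cells, read 1.85 and 1.79 in control glomeruli against 3.78 and 3.16 after tamoxifen, and -3.86 to -2.82 in all cultures. It rose by 1.65 in glomeruli (SE 0.20, adjusted p = 0.015), with a difference of 1.78 (SE 0.24, adjusted p = 0.028). Ggt1, a brush border glutamyltransferase, read -0.02 and 0.07 in control glomeruli against 1.92 and 1.22 after tamoxifen, and -5.45 to -5.08 in cultures (difference 1.65, SE 0.28, adjusted p = 0.044). For the whole list of 29 tubule markers tested, the summed linear level was 191.4 to 211.3 in control and 372.2 to 589.0 in treated glomeruli, and 4.54 to 8.51 in cultures. All 29 were well above background on both arrays of each glomerular group, and 16 to 18 on neither array of a culture group. Anpep, a brush border aminopeptidase, was called as well. It read -0.23 and -0.18 in control glomeruli against 1.69 and 1.02 after tamoxifen, and -2.14 to -0.91 in mock against -3.13 to -1.59 in treated cultures (difference 2.50, SE 0.45, adjusted p = 0.049). Treated glomeruli were highest, and neither response of Anpep was called by itself. With normexp the difference of Ggt1 was 0.86 (adjusted p = 0.51). The part of the tubule markers in these results was not tested.

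Trp53inp1, a p53-inducible protein, fell in glomeruli. It read 2.17 and 2.41 in control glomeruli against 1.14 and 1.23 after tamoxifen, and 2.38 to 2.51 in mock against 2.62 to 3.07 in treated cultures. The glomerular fall was 1.11 (SE 0.15, adjusted p = 0.022), the culture response 0.32 (SE 0.11, adjusted p = 0.14) and the difference -1.43 (SE 0.18, adjusted p = 0.028). Slc49a4, a membrane transporter of the solute carrier 49 family, had the smallest adjusted p among the named genes. It read -1.54 and -1.66 in control glomeruli against -2.68 and -2.67 after tamoxifen, -2.37 and -2.40 against -2.48 and -2.43 at day 4, and -1.97 and -1.94 against -1.70 and -1.68 at day 7. It fell by 1.07 in glomeruli (SE 0.09, adjusted p = 0.0077), with a difference of -1.17 (SE 0.11, adjusted p = 0.014), and its day 4 and day 7 responses were -0.07 and 0.27. Mpp5, a scaffold of the Crumbs polarity complex, read 2.55 and 2.89 in control glomeruli against 1.57 and 1.36 after tamoxifen, and 0.76 to 1.04 in all 8 cultures. Pde5a, a phosphodiesterase specific for cyclic GMP, read -0.88 and -1.15 in control glomeruli against -1.99 and -2.28 after tamoxifen. Pde5a in cultures ranged from -2.64 to -1.56. Mpp5 fell by 1.26 and Pde5a by 1.12 in glomeruli, with differences of -1.23 (adjusted p = 0.034) and -1.14 (adjusted p = 0.044). Beside these falls, the summed level of 22 immune markers was 38.8 to 42.4 in control and 12.2 to 20.5 in treated glomeruli, and that of 7 red blood cell markers 39.8 to 88.9 and 0.912 to 7.53. Sums also fell for 28 slit diaphragm and foot process markers (585.6 to 690.4, then 435.9 to 533.2) and 23 endothelial markers (438.5 to 534, then 368.1 to 392.2). So did that of 18 podocyte transcription factors (119.4 to 143.2, then 97.6 to 117.4). The tubule sum rose, and the mesangial and parietal sums overlapped. The part of these markers in the results was not tested.

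In 6 genes both responses were called with opposite signs: Flvcr2, Fam13a, Tmem25 and Gpr160 rose in glomeruli and fell in cultures, and Trp53i11 and Klk12 did the reverse. Flvcr2, a membrane transporter of the FLVCR family, read -3.28 and -3.13 in control glomeruli against -1.43 and -2.08 after tamoxifen. It read -3.44 and -2.79 in day 4 mock cultures against -4.45 and -4.57 with tamoxifen, and -2.94 and -3.10 against -4.47 and -4.45 at day 7. Controls and mocks started at much the same level and the treated samples moved apart, by 1.45 upwards (SE 0.26, adjusted p = 0.034) and 1.42 downwards (SE 0.18, adjusted p = 0.0071), a difference of 2.87 (SE 0.31, adjusted p = 0.022). With normexp the difference was 1.05 (adjusted p = 0.39).

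Tmem25, a transmembrane protein with immunoglobulin domains, read -1.25 and -0.75 in control glomeruli against 0.32 and 0.13 after tamoxifen. Cultures read -1.89 and -2.13 against -2.68 and -2.77 at day 4, and -2.20 and -2.13 against -2.90 and -2.68 at day 7. The difference was 1.90 (SE 0.22, adjusted p = 0.023), with no overlap on either side. Fam13a had responses of 1.23 and -0.87 and a difference of 2.10 (SE 0.29, adjusted p = 0.030). Trp53i11, a p53-induced protein, read 1.21 and 0.86 in control glomeruli against 0.29 and 0.32 after tamoxifen, and 1.66 to 1.74 in mock against 2.18 to 2.49 in treated cultures. It fell by 0.73 in glomeruli and rose by 0.56 in cultures, a difference of -1.29 (SE 0.18, adjusted p = 0.029). Klk12, a kallikrein-related peptidase, had a difference of -0.99 (SE 0.15, adjusted p = 0.033), and all its values lay between -5.17 and -4.01. It was well above background on 1 of the 2 treated glomerular arrays. With normexp the differences of Tmem25, Fam13a and Klk12 were 1.25, 1.12 and -0.58, none called. Gpr160, an orphan receptor outside the naming rule and named after its values were seen, had a measured difference of 1.66 (SE 0.23, adjusted p = 0.029). It was not well above background in treated day 4 cultures, and its bound is 1.52.

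The 8 genes with neither response called had responses of opposite sign, which choosing by the difference favours, and only their difference passed the test. Mmp8, a neutrophil collagenase, read -4.08 and -3.62 in control glomeruli against -7.45 and -5.96 after tamoxifen, where it was not well above background. In cultures it read -3.98 and -4.88 against -2.38 and -2.14 at day 4, and -3.33 and -5.17 against -2.65 and -3.01 at day 7. Its measured difference was -4.65 (SE 0.81, adjusted p = 0.048), and the bound is -3.59, at least 12.02-fold. With normexp it was -1.60 (adjusted p = 0.14). Serinc2 (difference 1.63), Ccdc106 (1.52) and Gucd1 (0.89) were higher in glomeruli, and Usp46, a deubiquitinase (-0.83), and Smug1, a uracil DNA glycosylase (-0.75), were lower. With normexp the difference of Ccdc106 was 0.21.

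The promoters of called genes were searched for the letters TGTTTAC and TGTTTGC on either strand, the core that forkhead proteins bind. RefSeq promoters (GRCm38.p6, 250 bases before to 50 after a start) were found for 46 of the 61 higher and 37 of the 47 lower genes. A match stood in 3 of 66 promoters of the higher genes (4.55%) and 3 of 49 of the lower genes (6.12%), against 6.18% of 12693 promoters of all included genes and 8.48% of 32851 promoters in the table. These shares lay near or below the background. Promoters with a match are shown for Dpyd and Clec2d, which fell in cultures, and for Trp53i11 and Klk12, which fell in glomeruli and rose in cultures, 5′ to 3′ along the gene, with the match in capitals.
Dpyd, chr3:118561930-118562229, plus strand: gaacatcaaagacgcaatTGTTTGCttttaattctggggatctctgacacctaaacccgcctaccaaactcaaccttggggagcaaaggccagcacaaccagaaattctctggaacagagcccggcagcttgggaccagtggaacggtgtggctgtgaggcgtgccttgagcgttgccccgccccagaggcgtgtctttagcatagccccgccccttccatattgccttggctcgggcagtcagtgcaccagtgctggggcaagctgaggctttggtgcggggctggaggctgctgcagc
Clec2d, chr6:129180365-129180664, plus strand: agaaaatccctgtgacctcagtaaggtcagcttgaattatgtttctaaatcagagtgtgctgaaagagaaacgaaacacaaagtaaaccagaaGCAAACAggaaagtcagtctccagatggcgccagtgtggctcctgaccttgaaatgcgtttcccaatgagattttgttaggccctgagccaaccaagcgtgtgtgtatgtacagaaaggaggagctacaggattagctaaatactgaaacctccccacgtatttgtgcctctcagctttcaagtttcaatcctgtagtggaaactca
Trp53i11, chr2:93187298-93187597, plus strand: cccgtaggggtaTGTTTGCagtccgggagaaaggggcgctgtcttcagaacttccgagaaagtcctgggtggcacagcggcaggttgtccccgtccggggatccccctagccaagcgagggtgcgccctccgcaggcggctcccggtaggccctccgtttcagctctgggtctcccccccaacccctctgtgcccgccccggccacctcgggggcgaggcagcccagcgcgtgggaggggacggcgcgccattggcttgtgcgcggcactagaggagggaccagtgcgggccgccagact
Klk12, chr7:43768850-43769149, plus strand: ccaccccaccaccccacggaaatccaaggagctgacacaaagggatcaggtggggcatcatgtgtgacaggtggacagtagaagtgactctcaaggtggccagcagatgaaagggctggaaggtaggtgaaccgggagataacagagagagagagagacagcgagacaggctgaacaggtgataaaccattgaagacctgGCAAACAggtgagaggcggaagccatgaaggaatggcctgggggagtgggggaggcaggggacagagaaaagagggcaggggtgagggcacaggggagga
Each held 1 match, at -232, -157, -238 and -50 from the start site respectively, a description of the letters only.

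Some genes changed in the same direction in both settings. Of the 34 called for both responses with the same sign, 18 rose and 16 fell, and 33 had no called difference. Foxl1, a forkhead factor of mesenchymal cells, read 0.20 and 0.27 in control glomeruli against 2.73 and 3.13 after tamoxifen, -0.66 and -1.09 against 1.01 and 0.86 at day 4, and -0.91 and -1.37 against 0.51 and 0.60 at day 7. It rose by 2.70 in glomeruli (SE 0.21, adjusted p = 0.0061) and 1.75 in cultures (SE 0.15, adjusted p = 0.0022), and every treated sample lay above every control of its setting. The difference of 0.95 (SE 0.26, adjusted p = 0.12) was not called, which does not show that the responses were equal. Ifitm1, an interferon-induced membrane protein, fell by 2.06 in glomeruli and 1.62 in cultures, where it was not well above background at day 7 with tamoxifen. Inava (1.93 and 0.93), Ddah1, which degrades asymmetric dimethylarginine (1.40 and 0.92), Asb2, a ubiquitin ligase subunit (1.35 and 1.00), and Tafa5 (1.12 and 0.98) rose in glomeruli and cultures respectively. Under normexp the differences of Asb2 (-0.35) and Tafa5 (-0.20), neither called, changed sign. That of Ifitm1 was -0.44, and under normexp -1.71 (adjusted p = 0.14 by limma). Inava had a difference of 1.01 that was not called (unadjusted p = 0.012, adjusted p = 0.16 by limma).

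Gene lists were described by counts and medians, beside a median difference of -0.05, a median glomerular response of -0.06 and a median culture response of 0.00 over all 12412 genes, of which 42.7% had a difference above 0 and 15.7% an unadjusted p under 0.05. Interferon response genes stood above 0 in 20 of 21 cases, with a median difference of 1.14, a median glomerular response of 0.83 and a median culture response of -0.29. By limma 0 of the 21 were called, against 0.87% of all included genes, and 9 had an unadjusted p under 0.05. Ifit1 read -2.01 and -3.17 in control glomeruli against 0.21 and -1.54 after tamoxifen, and -3.63 to -2.74 in mock against -4.17 to -3.43 in treated cultures. Treated glomeruli were above controls, and the difference of 2.60 (SE 0.73, adjusted p = 0.13) was not called. Ifit3 had a difference of 2.62 (SE 1.24, adjusted p = 0.34), with control glomeruli at 2.04 and 0.22. Under normexp the list's median was 0.60.

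Metabolic and stress lists had 0 calls for the difference. All 27 oxidative phosphorylation genes had a difference above 0 with a median of 0.22, and 0 were called by limma, with 7 at an unadjusted p under 0.05. Sdhb, a subunit of succinate dehydrogenase, read 4.78 and 4.95 in control glomeruli against 5.46 and 5.34 after tamoxifen and 4.50 to 4.71 in cultures (difference 0.51, SE 0.13, adjusted p = 0.11). Of 23 cholesterol synthesis genes 20 were above 0 (median 0.21), as were 12 of 16 genes of fatty acid use (0.32) and 15 of 21 of the oxidative stress response (0.22). By limma 0 were called in each, and 0, 4 and 6 had an unadjusted p under 0.05. Unfolded protein response genes were below 0 in 19 of 21 cases, with a median difference of -0.46 from medians of -0.26 in glomeruli and 0.16 in cultures. Hspa5, the main chaperone of the endoplasmic reticulum and named after its values were seen, had a difference of -0.64 (adjusted p = 0.18). Of the list 0 were called by limma, and 7 had an unadjusted p under 0.05. Heat shock genes were below 0 in 13 of 17 cases (median -0.13) and ribosomal protein genes in 21 of 22 (-0.18), with 0 called by limma and 2 in each list at an unadjusted p under 0.05. For the ribosomal genes the median was -0.06 with quantile normalization and -0.04 with normexp.

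Immediate early genes, which cells switch on within minutes of a stimulus, were above 0 in 15 of 18 cases with a median of 0.49. Dusp1, a phosphatase of MAP kinases, read 1.73 and 1.40 in control glomeruli against 2.22 and 1.81 after tamoxifen. In cultures it read 1.75 to 2.85 with mock and 0.50 to 0.90 with tamoxifen, and it fell there by 1.63 (adjusted p = 0.017 by limma), while its difference of 2.08 (SE 0.47, adjusted p = 0.081) was not called. Klf2, a zinc finger factor, fell by 1.33 in cultures (adjusted p = 0.028), with a glomerular response of 0.17. For the difference 0 of the list were called by limma, with 5 at an unadjusted p under 0.05, and under normexp the median was 0.18.

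Podocyte genes were described in 3 lists. Among 25 genes of the foot process and its slit diaphragm, 7 were above and 18 below 0 with a median of -0.17, and Inf2 alone was called, with 5 at an unadjusted p under 0.05. Synpo, which encodes the actin-associated synaptopodin and was taken as a familiar podocyte gene and not by the naming rule, had responses of -1.32 in glomeruli and -0.61 in cultures, and its difference was not called (adjusted p = 0.27). Podocyte transcription factors had a median of -0.04 and 0 of 17 called by limma, with 4 at an unadjusted p under 0.05. Foxd1, a forkhead factor of the kidney stroma and podocytes, read 0.53 and 1.12 in control glomeruli against -0.16 and 0.59 after tamoxifen. Cultures read 2.86 to 3.55 with mock and 0.61 to 1.55 with tamoxifen, so that it fell there by 2.05 (SE 0.27, adjusted p = 0.0075) while the difference of 1.44 (SE 0.47, adjusted p = 0.17) was not called. Among 30 podocyte surface and secreted proteins Ptgis alone was called, with 9 at an unadjusted p under 0.05 and a median of -0.35. Among 22 forkhead genes Foxc2 alone was called, with 9 at an unadjusted p under 0.05 and 11 above and 11 below 0.

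Signalling lists held 1 call for Wnt and 1 for TGF-beta genes. Wnt9a was the only call among 21 Wnt pathway genes (median -0.20), of which 5 had an unadjusted p under 0.05. Wnt4, another Wnt ligand, was named after its values were seen and read -2.05 and -2.55 in control glomeruli against -4.27 and -4.58 after tamoxifen, and -2.18 to 0.21 in mock against 0.77 to 1.51 in treated cultures. The Wnt4 samples did not overlap within either setting, and its difference of -3.85 (SE 0.82, adjusted p = 0.072) was not called. Acvr1 was the only call among 28 TGF-beta and BMP pathway genes (median -0.22, 7 at an unadjusted p under 0.05), and 0 of 14 Notch genes (-0.04) and 0 of 12 cytokines and chemokines (-0.07) were called by limma, with 2 and 5 at an unadjusted p under 0.05. Basement membrane (0 of 20 called), fibrillar collagen (0 of 23), actin and focal adhesion (0 of 28), smooth muscle (0 of 12), hypoxia and glycolysis (0 of 23) and estrogen response genes (0 of 12) had medians between -0.23 and 0.20. By limma their unadjusted p was under 0.05 for 3, 2, 5, 1, 0 and 3 genes, in the same order. Col18a1, a basement membrane collagen, stayed at 4.58 to 5.02 in glomeruli and fell by 1.14 in cultures (adjusted p = 0.021), without a called difference (1.17, adjusted p = 0.15). Acta2, smooth muscle actin, rose by 1.102 in glomeruli (adjusted p = 0.016), with a culture response of 0.37 and a difference of 0.73 (adjusted p = 0.082).

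Markers of other cell types were read the same way. Mesangial and mural genes were above 0 in 11 of 12 cases (median 0.81) with Rgs5 called, and tubule genes in 7 of 9 (median 0.97) with Slc22a6 and Ggt1 called. Endothelial genes were below 0 in 15 of 17 (median -0.31) and immune genes in 12 of 15 (-0.44), with 0 called by limma in either and 1 and 3 at an unadjusted p under 0.05. On the parietal epithelial list 0 of 7 were called and 5 had an unadjusted p under 0.05, with 4 of 7 below 0 and a median of -0.41. Lower among the 5 were Cd44, a hyaluronan receptor (-1.08), Cav1, caveolin 1 (-1.21), and Ncam1, a cell adhesion molecule (-1.59), and higher were the tight junction genes Cldn1 and Cldn2. The summed linear level of the 11 parietal markers tested was 20.8 to 30.6 in mock and 43.8 to 46.5 in treated cultures, while Cldn1 and Cldn2 fell there. Cldn1 was at -4.46 to -3.69 in glomeruli and at -1.56 to -0.84 in mock against -3.56 to -2.37 in treated cultures. It fell by 1.73 in cultures (adjusted p = 0.0052), with a difference of 1.88 (SE 0.35, adjusted p = 0.053). Cldn2 had the larger difference of 5.33 (SE 1.15, adjusted p = 0.073), with treated cultures spread from -7.85 to -3.95 and well above background on 1 of the 2 treated arrays of each day. Of p53 response genes Trp53inp1 alone of 20 was called, with a median of -0.25. The 2 red blood cell genes included, Hba-a2 and Slc4a1, had differences of -4.15 and -0.13, neither called.

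**Figure D4:**
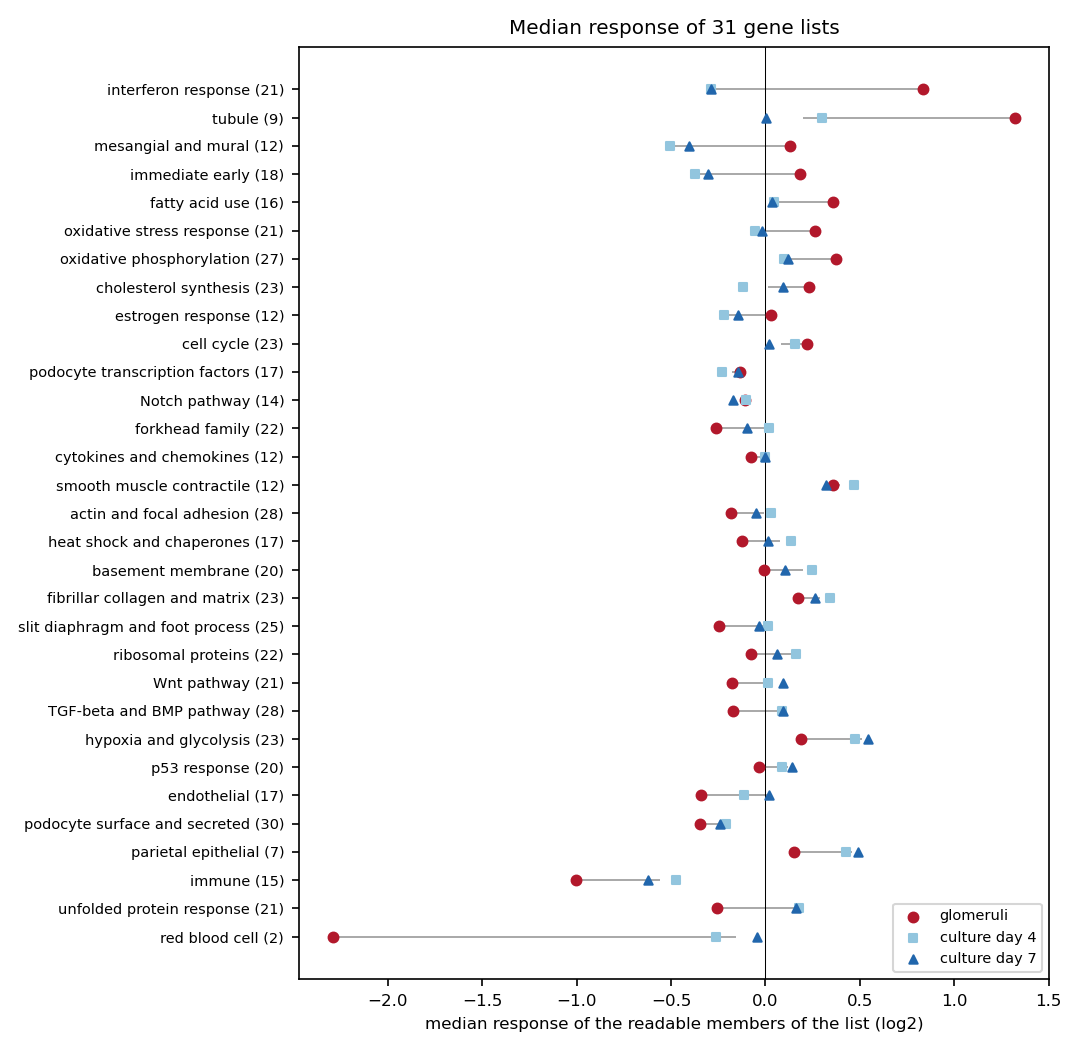
Median response in log2 units of the included genes of each of 31 lists (number of genes in brackets) in glomeruli (circles), day 4 cultures (squares) and day 7 cultures (triangles), ordered by the median difference of responses, with a grey line from the glomerular median to that of the mean culture response. Interferon, tubule and mesangial lists stand at the top, with glomerular medians of 0.83, 1.32 and 0.13, and the unfolded protein response stands near the bottom at -0.26.

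The culture responses at day 4 and day 7 were also set against each other. The difference between the culture responses was called by limma for 0 of 12412 genes (0% of all genes tested), and 33 genes (0.266%) had an unadjusted p under 0.05. That share is smaller than the threshold itself would give with no differences, and 0 calls do not show that the days were alike. Among culture groups the deviations of same-numbered samples correlated at 0.48 to 0.70, and the fit had no term for this. Its part in this share was not tested. Each day alone was called for fewer genes than the mean, 20 at day 4 (background 0.21%) and 98 at day 7 (background 0.972%). Against the day 4 cultures alone 3 differences from glomeruli were called, and against the day 7 cultures alone 28. For Atp1b1 the responses were -3.26 at day 4 and -3.74 at day 7, for Rgs5 -1.88 and -2.82, and for Pde2a 1.87 and 2.35.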

How the data were processed

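Total RNA was measured on 12 one-colour Agilent arrays, 1 per sample. The deposited intensity values, per the file headers, are Agilent Feature Extraction 11.5.1.1 output, in which the processed signal is already background-subtracted. The authors' deposited value table, on a log2 scale, was used as an alternative: it matched the scanner values at r = 1 with a median shift of 0.094 to 0.12 per array, and how it was centred is not given in the sources used here.

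Control and outlier spots were left out. Signals were divided by each array's 75th percentile and taken to log2. Probes took RefSeq symbols by accession (GRCm38.p6): 26581 of 39429 probes had 1 symbol, 0 had several and 12848 had none. The brightest probe well above background on at least 2 arrays stood for a gene. limma 3.58.1 in R 4.3.3 fitted 6 group means over 12 arrays (6 residual degrees of freedom), with Benjamini-Hochberg adjustment over 15226 genes and a threshold of 0.05. No fold change was floored, and no level is compared between probes. The fit was tested on simulated data with independent noise and changes in glomeruli alone. Such data lack the correlated deviations of same-numbered samples, so their effect on the calls was not tested there.

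The naming rule takes Foxc1 and Foxc2, the 10 largest called differences in each direction and the 4 largest of each class and direction. It adds up to 3 whose treated side was dim and up to 6 with both responses called, of the same sign, and no called difference. It also adds up to 3 called or 2 uncalled genes of each of 31 lists. Named calls need a readable symbol, a probe above background in every group (except the dim genes) and no overlap between glomerular and culture differences. The members and lists were chosen with earlier results of these data known. Alternatives changed the background model, scaling, filter, probe rule, variance model, block, culture day and arrays included. Some items are not reported here.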

Additional observations from a re-analysis of the deposited data

Results flagged for a closer look

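The difference between the response of glomeruli and that of cultures was itself tested, and it passed for 61 genes higher and 47 lower in glomeruli. The 43 of them that the naming rule chose are given by how often each call held when 1 of the 12 arrays was left out. The longest-held calls, in 9 of 12 such fits, were those of Slc49a4 (-1.17) and Wnt9a (-1.51). The value in brackets is the difference of responses in log2 units. In 8 fits the call held for Foxc2 (5.61). 7 fits kept the call of Adamts8 (3.85) and Flvcr2 (2.87). 6 fits kept the call of Clec2d (3.27). 5 fits kept the call of Atp1b1 (4.67), Fads2 (2.05), Tmem25 (1.90) and Trp53inp1 (-1.43). 4 fits kept the call of Dpyd (3.86), Rgs5 (2.83), Slc22a6 (1.78), Klhl29 (-1.62), Nhsl2 (-1.92), Fhdc1 (-2.34) and Pde2a (-2.79). 3 fits kept the call of Fam13a (2.10), Echdc3 (2.10), Ptgis (1.91), Klk12 (-0.99), Acvr1 (-1.02) and Trp53i11 (-1.29). 2 fits kept the call of Aldh1a7 (2.87), Cdkl1 (2.73), Rrm2 (1.83), Ccdc106 (1.52), Gucd1 (0.89), Pde5a (-1.14), Mpp5 (-1.23), Tmem229b (-1.57), Angptl2 (-1.59), Metrnl (-1.90), Lcn2 (-2.49) and Mmp8 (-4.65). 1 fit kept the call of Lancl3 (3.24), Anpep (2.50), Ggt1 (1.65), Serinc2 (1.63) and Ahr (-1.45). In 0 of the 12 fits did the call hold for Inf2 (0.79), Smug1 (-0.75) and Usp46 (-0.83). Glomeruli and cultures lay on different slides, so tissue and slide cannot be told apart for any of these genes.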

How the results depend on the processing

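Differences were called for 108 genes (61 higher, 47 lower). The count was 3 (3 and 0) with normexp, 54 (34 and 20) without a filter on dim probes, 3 (2 and 1) against day 4 alone and 28 (19 and 9) against day 7 alone. Leaving out 1 array gave 1 to 216 in all, 1 to 157 higher and 0 to 59 lower. Median scaling (121), quantile normalization (143), the authors' table (118), a filter at 6 arrays (94), genes readable on all arrays (94), the mean of probes (101) and a trended, robust variance (157) stayed within 1.5 times.

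By class, glomerular side, culture side, opposed, unequal and neither numbered 43, 50, 6, 1 and 8. They were 0, 3, 0, 0 and 0 with normexp and 24, 26, 2, 0 and 2 without a filter. The glomerular side was 66 with quantile normalization, the neither class 4 with the filter at 6 arrays, and the unequal class 0 for genes readable on all arrays and 2 with the trended variance. Leaving out 1 array gave 0 to 144, 0 to 75, 0 to 7, 0 to 1 and 0 to 16. The glomerular response (259) was called for 3 genes with normexp and 140 without a filter, and 35 to 306 with 1 array left out, and the culture response (629) for 162 to 740. The cause was not tested.

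Replicate numbers are shared by groups, but no label says that they pair samples. Deviations of same-numbered samples correlated at 0.48 to 0.70 among culture groups, 0.30 between glomerular groups and -0.06 to 0.08 between glomeruli and cultures. With a replicate block within glomeruli, day 4 and day 7 the difference was called for 312 (171 and 141; classes 105, 164, 19, 5 and 19), of which 84 were among the 108, and the culture response for 1485. With 1 block for cultures and 1 for glomeruli it was 514 (291 and 223; classes 190, 246, 49, 8 and 21), with 701 and 1662 for the responses, and Foxc1 passed (adjusted p = 0.041), as in no other setting. With 1 block over all 12 arrays it was 177 (112 higher; classes 69, 88, 12, 4 and 4). A slide block could not be fitted, because each slide holds whole groups.

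Reversed signs, all uncalled, were those of Asb2 (-0.35) and Tafa5 (-0.20) with normexp, Loxl2 (0.36) without treated glomeruli 1, and Slc4a1 without control glomeruli 1 (0.30) or treated glomeruli 1 (0.04). Over all such fits Loxl2 ranged from -4.99 to 0.36 and Slc4a1 from -0.56 to 0.30.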

Other observations

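Other named list genes gave values without a call. Cxcl12, a chemokine, had a difference of 2.55, Il34, a cytokine for macrophages, of 2.18, and Gpx3, a secreted glutathione peroxidase, of 2.30. Lower in glomeruli without a call were Lama4, a laminin chain (-2.03), Loxl2, a collagen crosslinking enzyme (-2.32), S100a8, a neutrophil protein (-2.79), Vegfa, the endothelial growth factor that podocytes secrete (-0.998), and Chac1 (-1.22) and Trib3 (-1.04) of the unfolded protein response. Of 23 called genes with more than 1 probe, 2, C2cd3 and Zrsr2, had a probe pointing the other way.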
